A study of Caenorhabditis elegans with 12 samples.

Results

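The 10 genes described here encode the 5 TRPV channel subunits of *C. elegans* (*osm-9*, *ocr-1*, *ocr-2*, *ocr-3* and *ocr-4*) and 5 proteins of sensory transduction and sensory cilia (*odr-3*, *osm-10*, *tax-2*, *tax-4* and *osm-12*). They were chosen by name, as the loci whose deposited symbol is 1 of the 10, and all 10 were found among the 41420 loci listed. The worms were late L4 larvae of the deletion strain *osm-9(ok1677)* or of the wild type Bristol strain N2, kept for 6 h on agar with 200 mM NaCl (hypertonic stress) or 51 mM NaCl (control). There were 4 libraries of *osm-9(ok1677)* at 200 mM, 4 of *osm-9(ok1677)* at 51 mM, 2 of N2 at 200 mM and 2 of N2 at 51 mM. Each library was made from the polyadenylated RNA of whole worms, and the study describes 2 to 4 independent experiments per condition. *osm-9(ok1677)* is 1 strain with 1 allele, and the study notes that it develops slightly more slowly and that staging allowed for this. In RNA from whole worms, fewer cells of a type and less RNA per cell cannot be told apart.

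TRPV channels are cation channels of the transient receptor potential family, built from subunits that cross the membrane several times. In *C. elegans*, OSM-9 and OCR-2 are needed together in the cilia of the ASH neurons, the main nociceptors of the head, for avoidance of high osmolarity, nose touch and repellents. OSM-9 is also made in other sensory neurons, and *osm* mutants fail to avoid hypertonic solutions. Upstream of the channel, ASH signalling uses G proteins such as ODR-3, and other sensory neurons use a cyclic nucleotide-gated channel of the TAX-2 and TAX-4 subunits in place of TRPV channels.

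Total counts were 15949889 to 21418277 per library, with a median of 20016844. The 10 genes together took 221 to 354 counts of a library, or 0.00111% to 0.00167% of its total. The smallest level taken as detectable, 3 counts, was 0.14 to 0.188 CPM, the count scaled to the library total, depending on the library, which covers counting error only. All 10 genes passed the filter on low counts and were among the 15403 loci tested, and the mean count of each was below the median of the tested loci, 281. *ocr-4* passed through the *osm-9(ok1677)* libraries at 51 mM NaCl, where it reached 11 counts. *tax-2* also passed through *osm-9(ok1677)* libraries alone, where it reached 14 counts, against at most 7 in N2. *tax-4*, *ocr-1* and *osm-12* needed *osm-9(ok1677)* libraries to pass as well, since too few N2 libraries reached the level of the filter. The strain comparisons of these genes are therefore not free of the filter. The *osm-9(ok1677)* libraries numbered 2 and 3 stood apart from those numbered 1 and 4 in 19 genes of the molting cycle. At 200 mM the summed level of those 19 genes was 985 and 1517 CPM in libraries 2 and 3 and 489 and 660 CPM in libraries 1 and 4, and at 51 mM it was 1647 and 1783 CPM in libraries 2 and 3 and 847 and 745 CPM in libraries 1 and 4. In N2 the sum was 418 and 623 CPM at 200 mM and 314 and 360 CPM at 51 mM.

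*osm-10* had the highest level of the 10 genes per length of exon, followed by *ocr-2*, *odr-3* and *osm-9*. On a scale of TMM-normalized CPM per kilobase of exon, with the mean ± SD over all 12 libraries, *osm-10* was at 2.70 ± 0.763, *ocr-2* at 1.31 ± 0.298, *odr-3* at 1.22 ± 0.269 and *osm-9* at 0.573 ± 0.201. The other 6 genes lay lower and close together, with *tax-4* at 0.227 ± 0.0804, *ocr-3* at 0.220 ± 0.104, *osm-12* at 0.206 ± 0.0770, *ocr-1* at 0.166 ± 0.0923, *tax-2* at 0.162 ± 0.0772 and *ocr-4* at 0.112 ± 0.0699. *osm-10* was above *ocr-2* in 12 of 12 libraries, *odr-3* above *osm-9* in 12 of 12, and *osm-9* above *tax-4* in 11 of 12. *ocr-2* was above *odr-3* in 8 of 12, and below *osm-9* each gene was above the next in 7 to 9 of 12. The ranges of all neighbours in this order overlapped. The scatter of counts within groups was 0.984 times the Poisson value for *tax-4* and 4.24 times for *osm-10*, with the other 8 genes between these.

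**Figure D1:**
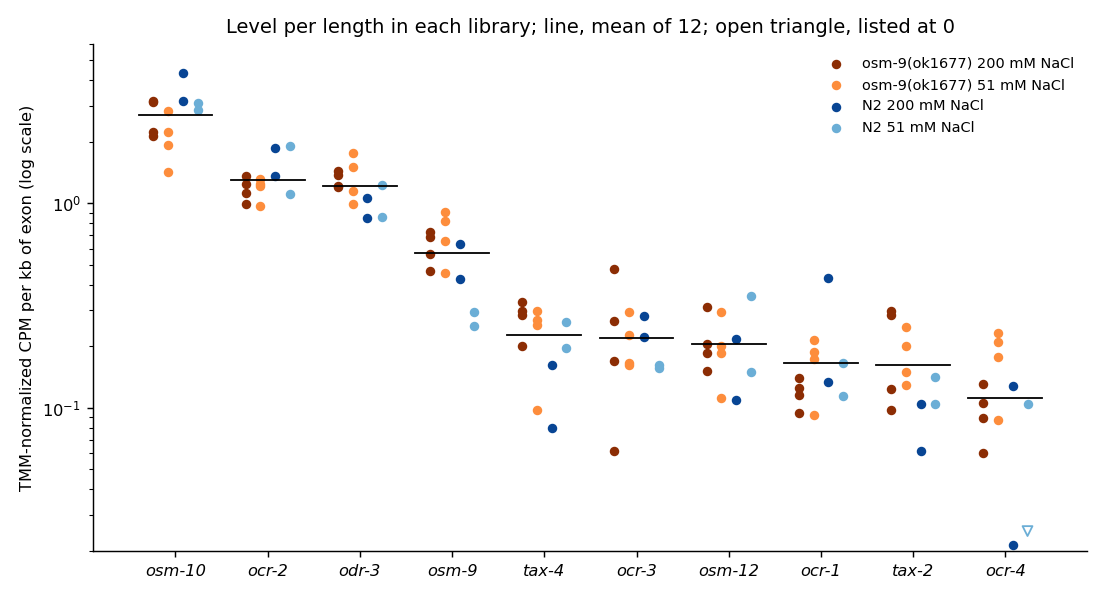
Level of each of the 10 genes in TMM-normalized CPM per kilobase of exon, on a log axis. Points are libraries, lines are means over 12 libraries, and the open triangle marks the N2 library at 51 mM with 0 counts of *ocr-4*. The 4 leading genes have means from 2.70 (*osm-10*) to 0.573 (*osm-9*), and the other 6 lie between 0.227 and 0.112.

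*osm-9*, the gene that the deletion targets, encodes the TRPV subunit that partners with OCR-2 in ASH and lies on chromosome IV at 3551090 to 3557431 on the minus strand (B0212.5; WBcel235). Its transcript level in *osm-9(ok1677)* worms at 51 mM NaCl was 2.58-fold that in N2 worms (95% interval 1.52 to 4.36). The locus had 41, 42, 50 and 25 counts in the *osm-9(ok1677)* libraries at 51 mM NaCl, against 17 and 14 counts in the N2 libraries. After normalization these were 1.87, 2.60, 2.34 and 1.31 CPM in *osm-9(ok1677)* (2.03 ± 0.569, SD, n = 4), against 0.846 and 0.719 CPM in N2 (0.783 ± 0.0899, SD, n = 2). All 4 *osm-9(ok1677)* libraries lay above both N2 libraries, with library 4 the nearest to them. The log2 fold change was 1.37 (SE 0.35, adjusted p = 0.0299, edgeR quasi-likelihood test), and *osm-9* was the only 1 of the 10 genes called in any of the 5 comparisons. In this comparison 12.3% of all tested loci were called, 7.64% as higher and 4.63% as lower, so that 1 of 10 is near the background.

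The call for *osm-9* changed when single libraries were left out. Without N2 library 1 the log2 fold change was 1.48 (adjusted p = 0.114) and without library 2 it was 1.20 (adjusted p = 0.218). In these fits 1 N2 library remained at 51 mM and was assumed to vary like the libraries of the other groups, so their p carries little weight. The call was also lost without *osm-9(ok1677)* library 2 (1.23, adjusted p = 0.0507) or library 3 (1.29, adjusted p = 0.0610). With both libraries 2 and 3 of *osm-9(ok1677)* left out it was 0.94 (adjusted p = 0.126), and with libraries 1 and 4 left out it was 1.66 (adjusted p = 0.0225). The 2 libraries of *osm-9(ok1677)* with the highest *osm-9* CPM at 51 mM, 2 and 3, were also those with the highest summed level of the molting genes, whose part in the result was not tested. At 200 mM library 3 was the highest of the strain in both, at 2.07 CPM for *osm-9* and 1517 CPM for the molting genes. Library 2 there had the lowest *osm-9* level of the strain, 1.34 CPM, with a molting sum of 985 CPM. Library 4 had 1.97 CPM of *osm-9* with a molting sum of 660 CPM. The files give 1 count per locus and not its position in the gene, and the ends of the *ok1677* deletion are not given in the sources used here. The count of *osm-9* therefore does not check the strain label or tell intact from truncated transcripts.

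At 200 mM NaCl the 2 strains had *osm-9* levels that overlapped. The locus had 34, 25, 41 and 38 counts in *osm-9(ok1677)* libraries, against 24 and 36 counts in N2 libraries. The levels were 1.63, 1.34, 2.07 and 1.97 CPM in *osm-9(ok1677)* (1.75 ± 0.336, SD, n = 4) and 1.23 and 1.82 CPM in N2 (1.53 ± 0.423, SD, n = 2). The log2 fold change was 0.20 (95% interval -0.51 to 0.91, adjusted p = 0.774, edgeR). The estimate at 51 mM, 1.37, lay outside this interval, but its own interval of 0.61 to 2.13 overlapped it. The difference between the concentrations was not called.

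**Figure D2:**
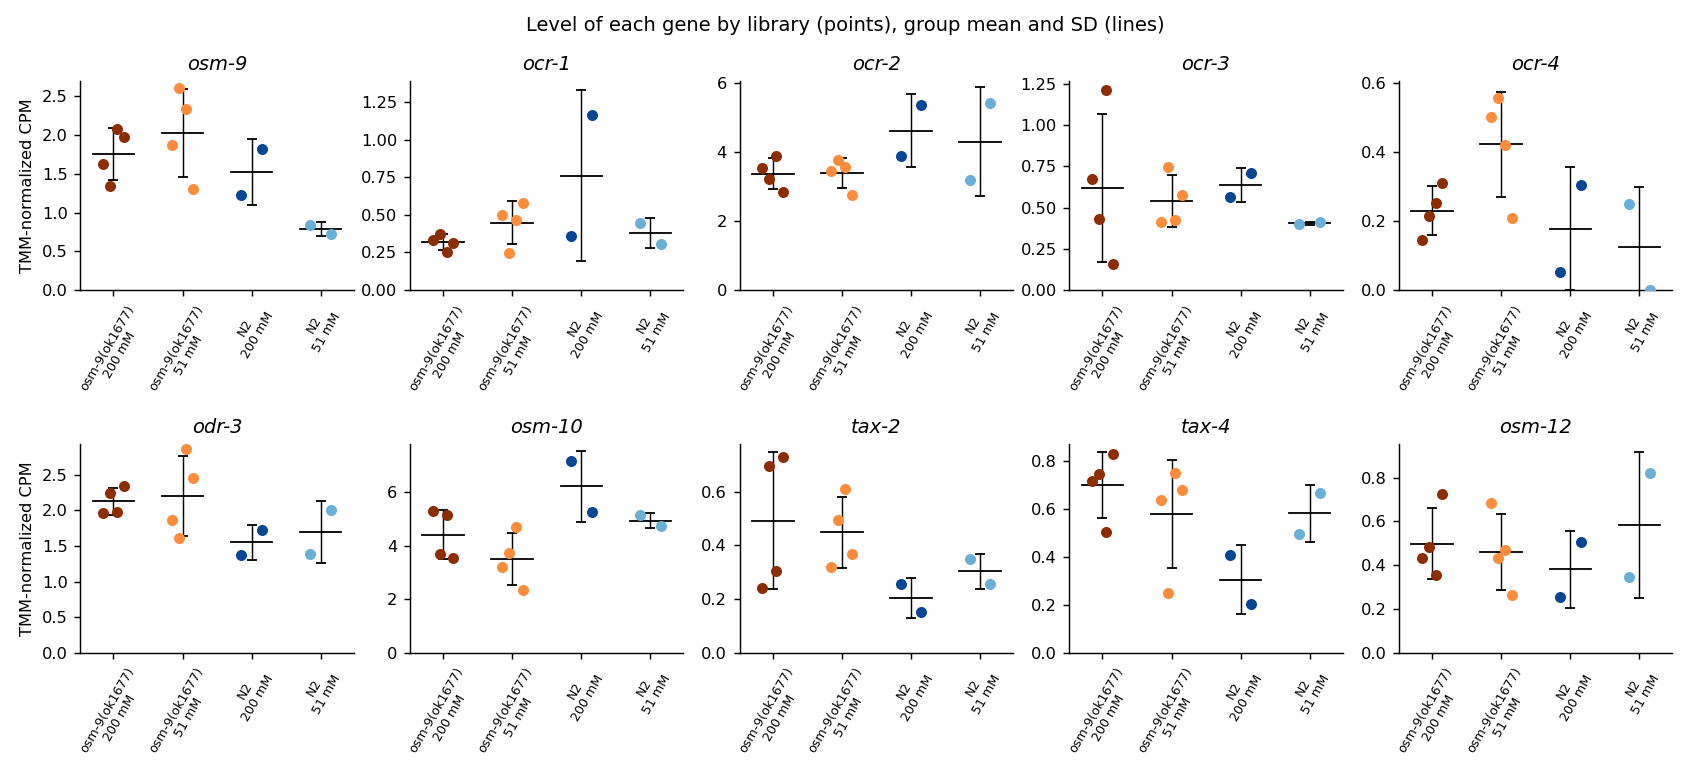
TMM-normalized CPM of each gene by library, 1 panel per gene with its own axis from 0. Points are libraries and lines are the group mean ± SD, cut at 0 where the SD reaches below it. For *osm-9* the N2 libraries at 51 mM (0.846 and 0.719 CPM) lie below the other 10 libraries, and for *osm-10* the *osm-9(ok1677)* libraries at 51 mM (2.36 to 4.69 CPM) lie below the N2 libraries.

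Within the TRPV family the balance between *osm-9* and the other subunits was also described from the raw counts, which need no normalization between libraries. Reads of *osm-9* were 27.7%, 32.8%, 32.5% and 24.0% of the counts of the 5 TRPV genes in *osm-9(ok1677)* libraries at 51 mM, against 16.5% and 10.4% in N2 libraries. At 200 mM the share was 25.8%, 24.0%, 27.0% and 35.2% in *osm-9(ok1677)* libraries and 20.2% and 19.5% in N2 libraries. Each *osm-9(ok1677)* library was thus above both N2 libraries of its NaCl concentration. The share also moves with the counts of the other TRPV genes, and at 200 mM the level of *osm-9* itself overlapped between the strains. The shares rest on 103 to 185 counts per library, and the 95% exact binomial intervals of the nearest libraries overlapped at both concentrations. At 51 mM they were 16.2% to 33.4% for *osm-9(ok1677)* library 4 and 9.92% to 25.1% for N2 library 1. At 200 mM they were 16.2% to 33.4% for *osm-9(ok1677)* library 2 and 13.4% to 28.5% for N2 library 1. Per 100 counts of *ocr-2*, the *osm-9* counts were 53.9, 68.9, 65.8 and 47.2 in *osm-9(ok1677)* and 26.6 and 13.2 in N2 at 51 mM. At 200 mM they were 45.9, 41.7, 53.2 and 69.1 in *osm-9(ok1677)* and 31.6 and 34.0 in N2. These ratios are given without a test.

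**Figure D3:**
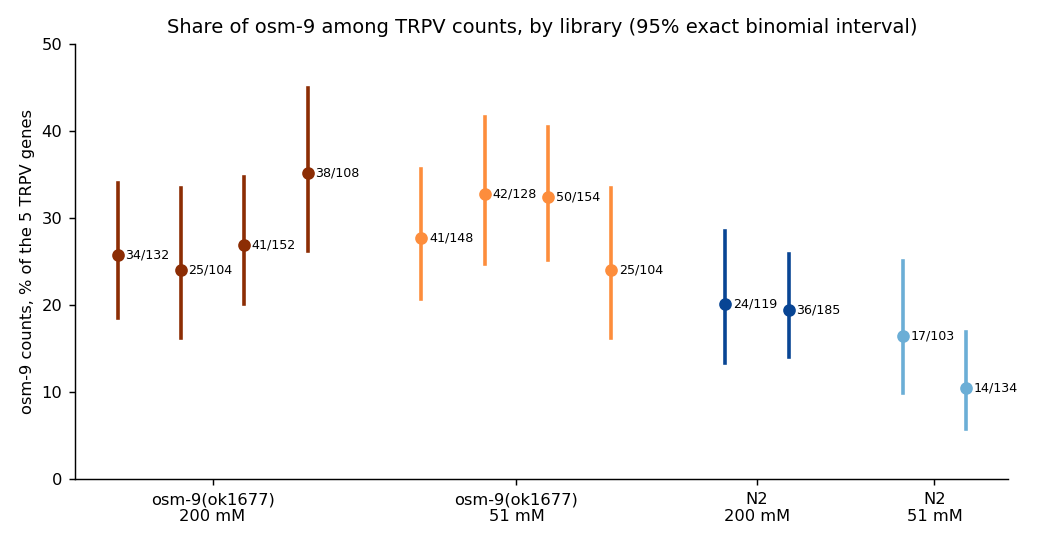
Counts of *osm-9* as a percentage of the counts of *osm-9*, *ocr-1*, *ocr-2*, *ocr-3* and *ocr-4*, for each library. Points carry the 2 counts, and lines are 95% exact binomial intervals, which cover counting error only. The *osm-9(ok1677)* libraries lie between 24.0% and 35.2% and the N2 libraries between 10.4% and 20.2%.

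*ocr-2*, whose product forms channels with OSM-9 in ASH and several other ciliated neurons, was the most abundant TRPV transcript in every group and did not differ detectably between the strains. It lies on chromosome IV at 8213788 to 8220087 on the minus strand. At 51 mM it had 76, 61, 76 and 53 counts in *osm-9(ok1677)* libraries, against 64 and 106 counts in N2 libraries, and at 200 mM 74, 60, 77 and 55 counts against 76 and 106 counts. At each concentration 1 N2 library stood at 106 counts and the other within the *osm-9(ok1677)* range. The log2 fold change between strains was -0.34 at 51 mM (95% interval -0.92 to 0.23, adjusted p = 0.412) and -0.45 at 200 mM (95% interval -1.03 to 0.12, adjusted p = 0.323).

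*ocr-1*, *ocr-3* and *ocr-4*, the less studied partners of OSM-9, had at most 24 counts in any library. *ocr-1*, which is expressed in the sensory neurons AWA and ADL, lies on chromosome V at 10764366 to 10768590 on the plus strand. At 200 mM it had 7, 7, 5 and 6 counts in *osm-9(ok1677)* libraries, against 7 and 23 counts in N2 libraries. The log2 fold change was -1.24 (95% interval -2.30 to -0.18, unadjusted p = 0.0225, adjusted p = 0.136, edgeR), and without the N2 library of 23 counts it was -0.23, with 1 N2 library left and its spread taken from the other groups (adjusted p = 0.864). At 51 mM *ocr-1* had 11, 4, 10 and 11 counts in *osm-9(ok1677)* libraries, against 9 and 6 counts in N2 libraries, with a log2 fold change of 0.26 (adjusted p = 0.784). Its exons overlap those of D1054.1 on the other strand over 128 bases, and D1054.1 had 168 to 476 counts per library and a log2 fold change of -0.29 at 51 mM (adjusted p = 0.488). The sources do not say if counting was by strand, so reads of this stretch cannot be told apart.

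*ocr-3*, on chromosome X at 15168724 to 15173636 on the plus strand, had 9, 12, 9 and 11 counts in *osm-9(ok1677)* libraries at 51 mM, against 8 and 8 counts in N2 libraries. At 200 mM it had 14, 8, 24 and 3 counts in *osm-9(ok1677)* libraries, against 11 and 14 counts in N2 libraries. The spread within *osm-9(ok1677)* at 200 mM took in both N2 values, and neither log2 fold change was called (0.39 at 51 mM, adjusted p = 0.730, and -0.04 at 200 mM, adjusted p = 0.981). *ocr-4*, which acts with *osm-9* in the OLQ head neurons, lies on chromosome IV at 7329611 to 7332795 on the minus strand, and its locus also joins the piRNA genes 21ur-14935 and 21ur-15313. It had 11, 9, 9 and 4 counts in *osm-9(ok1677)* libraries at 51 mM, against 5 and 0 counts in N2 libraries, and at 200 mM 3, 4, 5 and 6 counts against 1 and 6 counts. The *ocr-4* groups overlapped in both comparisons. Its log2 fold change of 1.69 at 51 mM (95% interval -0.29 to 3.68, adjusted p = 0.203) was the largest of the 10 genes and the least precise, and with single libraries left out it ran from 0.69 (adjusted p = 0.632), without the N2 library at 0 counts, to 6.07 (adjusted p = 0.0699), without the other N2 library. The 6.07 is set against 0 counts and depends on the prior count of the fit.

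*odr-3*, which encodes a G protein alpha subunit that acts in olfactory neurons and in ASH, was called in none of the comparisons. It lies on chromosome V at 13246324 to 13249536 on the minus strand. It had 41, 26, 61 and 47 counts in *osm-9(ok1677)* libraries at 51 mM, against 28 and 39 counts in N2 libraries. At 200 mM it had 41, 42, 39 and 45 counts in *osm-9(ok1677)* libraries (2.13 ± 0.190 CPM, SD, n = 4), against 27 and 34 counts in N2 libraries (1.55 ± 0.243 CPM, SD, n = 2). The strains overlapped at 51 mM and not at 200 mM. Neither log2 fold change was called (0.38 at 51 mM, 95% interval -0.24 to 1.0, adjusted p = 0.413, and 0.46 at 200 mM, 95% interval -0.17 to 1.08, adjusted p = 0.379).

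*osm-10*, needed in ASH for osmotic avoidance and not for the response to nose touch, was the most counted of the 10 genes, and lies on chromosome III at 7243280 to 7245746 on the plus strand. At 51 mM it had 70, 60, 100 and 45 counts in *osm-9(ok1677)* libraries, against 103 and 92 counts in N2 libraries. In CPM these were 3.20, 3.72, 4.69 and 2.36 in *osm-9(ok1677)* (3.49 ± 0.976, SD, n = 4), against 5.13 and 4.72 in N2 (4.93 ± 0.284, SD, n = 2). The groups did not overlap in CPM, although library 3 of *osm-9(ok1677)* came close to an N2 library, and the log2 fold change of -0.50 was not called (95% interval -1.13 to 0.14, adjusted p = 0.274). It was -0.90 (adjusted p = 0.0778) with *osm-9(ok1677)* libraries 2 and 3 left out and -0.21 (adjusted p = 0.640) with libraries 1 and 4 left out. At 200 mM *osm-10* was at 5.28, 3.69, 5.16 and 3.53 CPM in *osm-9(ok1677)* libraries, from 68 to 110 counts, against 7.16 and 5.27 CPM in N2 libraries, and the groups overlapped, with a log2 fold change of -0.49 (95% interval -1.12 to 0.14, adjusted p = 0.326). The exons of *osm-10* overlap those of *zmp-6* on the other strand over 46 bases, and *zmp-6* had 14 to 161 counts, with 73 and 161 of them in *osm-9(ok1677)* libraries 2 and 3 at 51 mM.

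*tax-4* and *tax-2* encode the alpha and beta subunits of the cyclic nucleotide-gated channel used by thermosensory, olfactory and gustatory neurons, and lie on chromosome III at 9181546 to 9185888 and on chromosome I at 9020945 to 9025608, both on the plus strand. At 200 mM *tax-4* had 15, 14, 10 and 16 counts in *osm-9(ok1677)* libraries, against 8 and 4 counts in N2 libraries, and the groups did not overlap. *tax-2* had 5, 13, 6 and 14 counts in *osm-9(ok1677)* libraries at 200 mM, against 5 and 3 counts in N2 libraries, with overlap in CPM. The log2 fold changes were 1.18 for *tax-4* (95% interval 0.11 to 2.25, unadjusted p = 0.0301, adjusted p = 0.159, edgeR) and 1.24 for *tax-2* (95% interval -0.08 to 2.55, adjusted p = 0.219), and neither was called. Both genes passed the filter on low counts only with the help of *osm-9(ok1677)* libraries. At 51 mM *tax-4* had 14, 4, 16 and 13 counts in *osm-9(ok1677)* libraries, against 10 and 13 counts in N2 libraries, and *tax-2* had 7, 8, 13 and 7 counts against 7 and 5 counts. The log2 fold changes at 51 mM were 0.01 for *tax-4* (adjusted p = 0.987) and 0.55 for *tax-2* (adjusted p = 0.540).

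*osm-12*, also named *bbs-7*, encodes a subunit of the BBSome, which moves membrane proteins through cilia, and lies on chromosome III at 12190972 to 12202537 on the minus strand. It had 15, 7, 10 and 5 counts in *osm-9(ok1677)* libraries at 51 mM, against 7 and 16 counts in N2 libraries. At 200 mM it had 9, 9, 7 and 14 counts in *osm-9(ok1677)* libraries, against 5 and 10 counts in N2 libraries. The groups overlapped at both concentrations, with log2 fold changes of -0.32 (adjusted p = 0.716) at 51 mM and 0.38 (adjusted p = 0.727) at 200 mM. The direction at 51 mM turned with the N2 library left out, at -0.81 (adjusted p = 0.416) without library 1 and 0.35 (adjusted p = 0.772) without library 2.

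Over the 10 genes, the strain comparison at 51 mM gave 1 higher and 0 lower, with a median log2 fold change of 0.32, beside 0.05 over all tested loci. At an unadjusted p of 0.05 or less it gave 1 of 10, against 29.1% of tested loci, and in 2 of 10 (*osm-9* and *osm-10*) the strains did not overlap, against 35.2% of tested loci. At 200 mM none of the 10 was called (6.43% of tested loci were, 4.13% as higher and 2.3% as lower), with a median of 0.28 beside 0.05. There 2 of 10 (*ocr-1* and *tax-4*) had an unadjusted p of 0.05 or less (edgeR) against 23.9% of tested loci, and 2 of 10 (*odr-3* and *tax-4*) did not overlap, against 34.3%. DESeq2 and edgeR's exact test called none of the 10 at 200 mM. The 95% intervals were wide, with a median distance of 1.02 on the log2 scale from the estimate to either end at 51 mM and 1.07 at 200 mM. Log2 fold changes larger than 1 in size were not called for *ocr-4* at 51 mM and for *ocr-1*, *tax-2* and *tax-4* at 200 mM.

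The second question was whether 6 h of hypertonic stress changed these transcripts. In *osm-9(ok1677)* none of the 10 was called at 200 mM against 51 mM NaCl, none had an unadjusted p of 0.05 or less (edgeR) and every gene overlapped between concentrations. Of all tested loci 0.351% were called (0.221% higher and 0.13% lower), 5.57% had an unadjusted p of 0.05 or less and 3.97% did not overlap. The log2 fold changes ran from -0.86 (*ocr-4*) to 0.34 (*osm-10*), and DESeq2 and the exact test also called none. With the replicate number as a block, 158 loci were called higher and 224 lower in place of 34 and 20, and none of the 10 genes was among them. For *osm-9* itself the log2 fold change in *osm-9(ok1677)* was -0.21 (95% interval -0.78 to 0.36).

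In N2 none of the 10 was called by edgeR, DESeq2 or the exact test, against 0.195% of all tested loci (0.0844% higher and 0.11% lower). *osm-9* had 24 and 36 counts at 200 mM, against 17 and 14 counts at 51 mM, and was the only 1 of the 10 with an unadjusted p of 0.05 or less, which 4.96% of tested loci had. Its log2 fold change was 0.96 (95% interval 0.09 to 1.83, unadjusted p = 0.0329, adjusted p = 0.873, edgeR). In 5 of 10 genes the N2 libraries did not overlap between concentrations, with *osm-9*, *ocr-3* and *osm-10* above and *tax-2* and *tax-4* below, against 26.9% of tested loci in either direction. The difference between the strains in the response was -1.16 for *osm-9* (95% interval -2.20 to -0.12, unadjusted p = 0.0305, adjusted p = 1, edgeR) and was called for none of the 10 by edgeR or DESeq2. Of all tested loci 0.00649% were called for this difference (0.00649% as higher and 0% as lower) and 1.8% had an unadjusted p of 0.05 or less. The N2 groups at each concentration enter several of these comparisons, so the values of *osm-9* at 51 mM, in N2 and for the difference are not separate evidence.

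**Figure D4:**
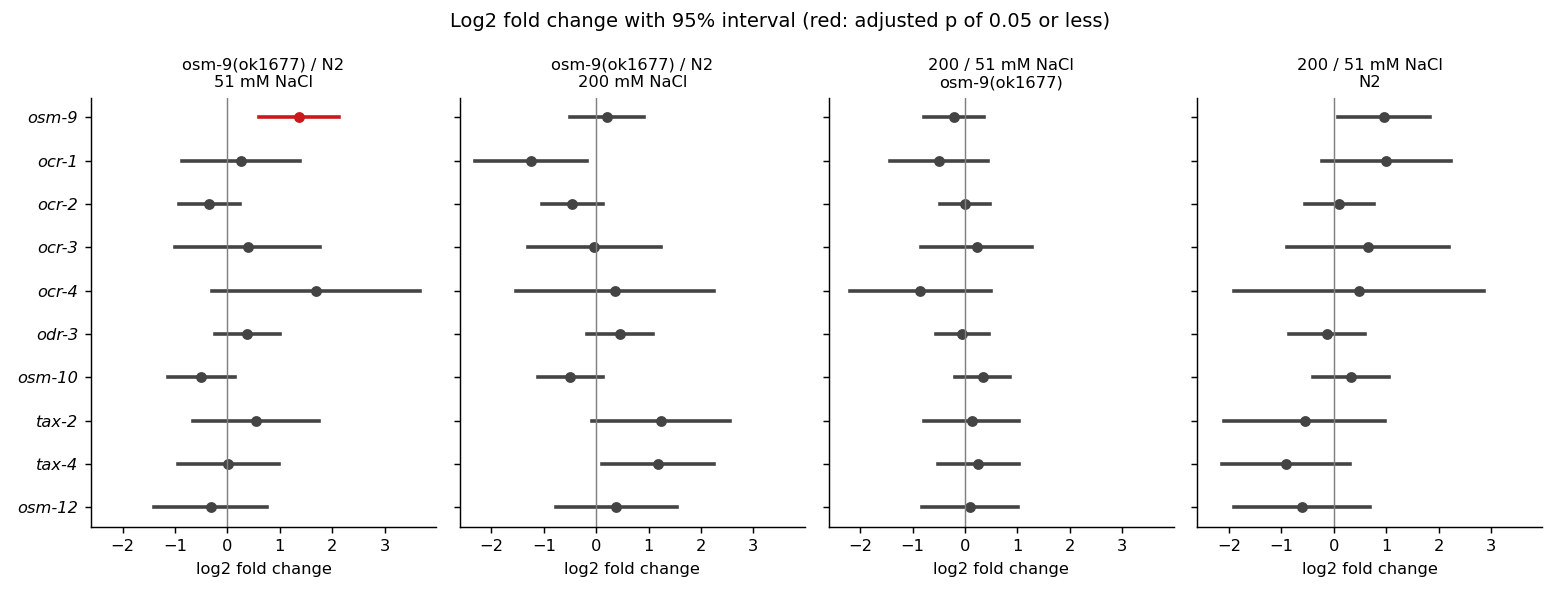
Log2 fold change of each gene with its 95% interval in 4 comparisons, from left to right the strains at 51 mM, the strains at 200 mM, NaCl in *osm-9(ok1677)* and NaCl in N2. Red marks an adjusted p of 0.05 or less, which only *osm-9* in the first panel has (1.37, 0.61 to 2.13). Intervals are widest for *ocr-4*.

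Other genes of the same pathways were read from lists chosen by name. Their counts between the strains stand beside 12.3% of all tested loci called at 51 mM and 6.43% at 200 mM. Among 12 other TRP channel genes, 10 were tested, and 2 were called higher at 51 mM. These were *trp-4*, a mechanosensitive channel of dopamine neurons, at 2.17 ± 0.884 CPM in *osm-9(ok1677)* (SD, n = 4) and 0.631 ± 0.0926 CPM in N2 (SD, n = 2; log2 fold change 1.77, adjusted p = 0.0315), and the TRPC gene *trp-1* (1.35, adjusted p = 0.0407). The median over this list was -0.01, and it was 0.07 with 0 called at 200 mM. Both calls were lost with *osm-9(ok1677)* libraries 2 and 3 left out, when *trp-3* and *trpa-2*, named after their values were seen, were called lower. Of 12 fits that left out 1 library, the call of *trp-1* was lost in 9 and that of *trp-4* in 4. The call of *trp-1* was also lost without the filter on low counts (adjusted p = 0.0543). Among the heterotrimeric G protein subunits 0 of 23 tested were called at either concentration, with medians of 0.18 and 0.05. Among the cyclic nucleotide genes 1 of 15 was called at 51 mM, *cng-1*, which encodes another channel subunit (1.29, adjusted p = 0.0265), and 0 at 200 mM.

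Of 14 genes linked to ASH nociception, 11 were tested, and 1 was called higher at 51 mM. This was *grk-2*, a G protein-coupled receptor kinase needed for chemosensation, with 10.2 ± 1.39 CPM in *osm-9(ok1677)* (SD, n = 4) and 6.50 ± 0.752 CPM in N2 (SD, n = 2; log2 fold change 0.64, adjusted p = 0.0372). The call was lost with either pair of *osm-9(ok1677)* libraries left out and without the filter on low counts (adjusted p = 0.0912). It was also lost in 10 of 12 fits that left out 1 library. The receptor genes *sra-6* and *srb-6*, which mark ASH and few other neurons, had 1 to 4 and 1 to 8 counts per library and were not tested. The content of ASH RNA could thus not be followed from its own markers. None of the ASH list was called at 200 mM.

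Of 34 tested genes of the BBSome, intraflagellar transport and the transition zone, 4 were called higher in *osm-9(ok1677)* at 51 mM and 0 lower, a share near the 12.3% of all tested loci. Of their log2 fold changes 32 were above 0, with a median of 0.48 beside 0.05 over all tested loci. The 3 with the smallest adjusted p were *mks-1* of the transition zone (1.97, adjusted p = 0.00571), *che-3*, the dynein heavy chain of retrograde transport (2.23, adjusted p = 0.0058), and *osm-3*, the kinesin motor of the distal cilium (1.50, adjusted p = 0.0156), and the fourth was *osm-6*, a subunit of the transport particles (1.29, adjusted p = 0.0441). At 200 mM 2 were called, *mks-1* (2.40, adjusted p = 0.0028) and *osm-3* (1.49, adjusted p = 0.0211), and the list's median was 0.06. This was 5.88% of the list, near the 6.43% of all tested loci. With *osm-9(ok1677)* libraries 2 and 3 left out, *mks-1* and *che-3* were called at 51 mM and *mks-1* and *osm-3* at 200 mM. That was 6.45% of the list at each concentration, beside 17% of all tested loci at 51 mM and 14.1% at 200 mM.

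Genes of marker lists for other tissues were called between the strains as well, and their part in the results above was not tested. Of all tested loci 12.3% were called at 51 mM and 6.43% at 200 mM. In the molting list 10 of 19 were called higher at 51 mM (median 2.44), led by *fbn-1* (2.15, adjusted p = 0.00166), *noah-2* (2.60, adjusted p = 0.00252) and *dpy-10* (2.97, adjusted p = 0.00356), and 2 at 200 mM (*fbn-1* 1.24, adjusted p = 0.0286, and *noah-2* 1.4, adjusted p = 0.0469). Of 5 amphid glia genes 2 were called higher at 51 mM, *ptr-10* (3.19, adjusted p = 0.00097) and *daf-6* (1.98, adjusted p = 0.0390), and 1 at 200 mM, *ptr-10* (1.90, adjusted p = 0.0137). Of 16 pan-neuronal genes 1 was called higher at 51 mM, *unc-31* (0.89, adjusted p = 0.0243), and 0 at 200 mM. The summed pan-neuronal level was 628 to 704 CPM in *osm-9(ok1677)* and 544 to 576 CPM in N2 at 51 mM, and 598 to 689 CPM and 532 to 684 CPM at 200 mM. Of 5 germ line genes *pgl-1* was called lower at 51 mM (-0.45, adjusted p = 0.0179), and of 5 muscle and 5 intestine genes none was called. The summed levels at 51 mM were 50.6 to 63.4 CPM in *osm-9(ok1677)* and 32.1 to 33.6 CPM in N2 for amphid glia, 807 to 1240 CPM and 1152 to 1383 CPM for the germ line, 3014 to 5572 CPM and 2935 to 3835 CPM for muscle, and 1321 to 1774 CPM and 1610 to 2324 CPM for the intestine. No gene of these lists was at 0 counts in every library, and in the main fit none of any list was called by the edgeR quasi-likelihood test in the NaCl comparisons or for the difference between strains. With only the 2 groups compared in the fit, *mks-1*, *che-3*, *ptr-10*, *fbn-1*, *noah-2* and *dpy-10* kept their calls at 51 mM, and *trp-4*, *trp-1*, *cng-1*, *grk-2*, *osm-3*, *osm-6*, *daf-6*, *unc-31* and *pgl-1* lost theirs. The calls of *daf-6* and *unc-31* were also lost with *osm-9(ok1677)* libraries 2 and 3 left out, and those of *cng-1* and *pgl-1* with libraries 1 and 4 left out. *osm-6* was not among the genes called at 51 mM with either pair left out or with the replicate block. Without either N2 library at 51 mM, *fbn-1* and *ptr-10* kept their calls there, *dpy-10* (adjusted p = 0.0688) and *noah-2* (adjusted p = 0.0557) lost theirs without library 2 alone, and the other genes named, with *osm-6* not followed, lost theirs without each. At 200 mM the call of *noah-2* was lost in 10 of 12 fits that left out 1 library (adjusted p up to 0.256) and with only the groups compared (adjusted p = 0.0785). The call of *fbn-1* at 200 mM was lost in 4 of these 12 (adjusted p up to 0.225) and with libraries 2 and 3 left out (adjusted p = 0.0650). At 200 mM *ptr-10* (adjusted p = 0.0953 and 0.146) and *osm-3* (adjusted p = 0.188 and 0.0691) lost their calls without N2 library 1 and without library 2, *osm-3* also without *osm-9(ok1677)* library 3 (adjusted p = 0.0515), and *mks-1* without N2 library 2 (adjusted p = 0.0545).

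For NaCl in *osm-9(ok1677)*, the call of *che-3* depended on the fit. Its level was 9.42 ± 2.19 CPM at 200 mM and 27.1 ± 10.3 CPM at 51 mM (SD, n = 4 each). The log2 fold change was -1.52 (adjusted p = 0.0686), and it was called with the replicate number as a block (-1.46, adjusted p = 0.000386), by DESeq2 (adjusted p = 0.000363), by the exact test (adjusted p = 0.000549) and without *osm-9(ok1677)* library 4 at 51 mM (-1.73, adjusted p = 0.0277). It was -1.14 (adjusted p = 0.665) with *osm-9(ok1677)* libraries 2 and 3 left out. With the block *ptr-4* of the molting list was also called lower in *osm-9(ok1677)*, and *noah-1* was called higher in N2, both named after their values were seen.

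Genes near *osm-9* on chromosome IV were called between the strains in a share that depended on the fit at 51 mM, where it was above or close to that of all tested loci. Of 80 protein-coding genes within 200 kb of *osm-9*, 55 were tested, and at 51 mM 23 were called higher and 1, Y37E11AL.12, lower in *osm-9(ok1677)*, or 43.6% beside 12.3% of all tested loci. The 1 lower gene had a log2 fold change of -1.30 (adjusted p = 0.0447) and is named after its values were seen. At 200 mM 17 were called higher and 0 lower, or 30.9% beside 6.43%. The median log2 fold change of these genes was 0.60 at 51 mM and 0.62 at 200 mM. On the left, *nstp-6* at 3.49 kb (0.66, adjusted p = 0.0640) and B0212.3 at 7.49 kb (1.36, adjusted p = 0.0753) were not called at 51 mM. On the right, *otpl-1* at 11.5 kb was called at both concentrations, and *sre-5* at 7.77 kb had 1 to 5 counts and was not tested. *otpl-1* had 99, 135, 197 and 97 counts in *osm-9(ok1677)* libraries, against 49 and 34 counts in N2 libraries at 51 mM (1.70, adjusted p = 0.0128), and 92, 100, 145 and 133 counts against 32 and 35 counts at 200 mM (1.81, adjusted p = 0.0143). With only the 2 groups compared in the fit, 4 genes of this window were called higher at 51 mM, or 7.27% beside 5.24% of all tested loci, and 17 at 200 mM, or 31.5% beside 5.33%. With *osm-9(ok1677)* libraries 2 and 3 left out, 14 were called higher and 4 lower at 51 mM (33.3% beside 17% of all tested loci), and 15 and 2 at 200 mM (31.5% beside 14.1%). The call of *otpl-1* at 51 mM was lost with only the groups compared (adjusted p = 0.0608), and its calls were lost without either N2 library (adjusted p = 0.0547 and 0.150 at 51 mM, 0.128 and 0.129 at 200 mM).

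**Figure D5:**
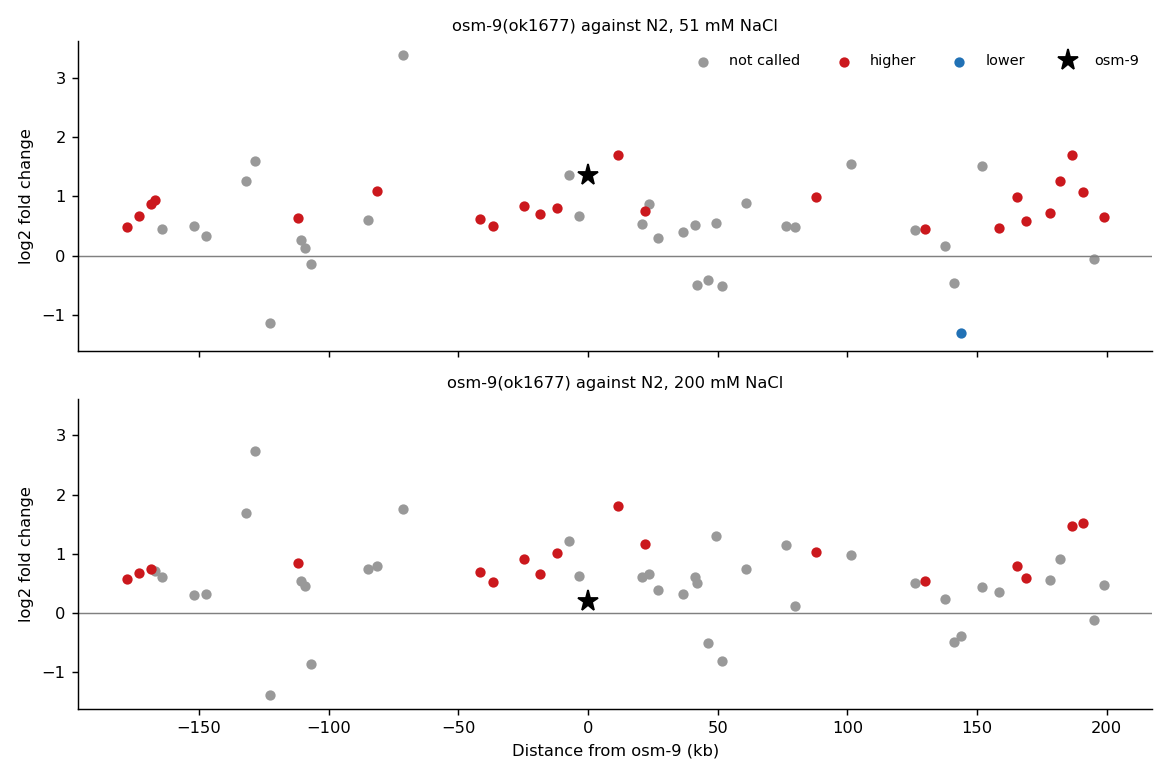
Log2 fold change of tested protein-coding genes within 200 kb of *osm-9* against their distance from it in kb, for *osm-9(ok1677)* over N2 at 51 mM (upper panel) and 200 mM NaCl (lower panel). Red and blue points are loci called higher and lower, grey points were not called and the star is *osm-9*. At 51 mM 23 points are red and 1 is blue, and at 200 mM 17 are red.

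The tested loci whose log2 CPM followed that of *osm-9* most closely over the 12 libraries were Y48G1BR.1 (Pearson r = 0.934), F17C11.22 (0.934), R01E6.7 (0.916), *hda-4* (0.915) and *eat-20* (0.913). Those closest to *osm-10* were C25H3.12 (0.902), *smk-1* (0.901), C18H2.2 (0.891), F56H1.10 (0.881) and *fut-5* (0.859). Among the 10 genes themselves, *osm-9* was closest to *ocr-4* (0.78), while its partner *ocr-2* gave -0.16. *ocr-4* had 0 to 11 counts per library, so the 0.78 rests on levels near the smallest taken as detectable. The points share the 4 groups and their libraries, so these are descriptions and carry no test.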

How the data were processed

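The deposited values are whole-number read counts per locus, without normalization. The authors aligned paired-end reads with TopHat 1.4.1 to the WS235 assembly and assigned them to Ensembl 71 genes with Cufflinks 2.0.1; whether counting used the strand is not given in the sources used here. Samples were grouped by strain, NaCl concentration and replicate from the labels. Counts of all 12 libraries were filtered with filterByExpr (minimum count 10, minimum total 15), scaled by TMM, and fitted by the quasi-likelihood method of edgeR (version 4.0.16, R 4.3.3) with a mean per group. Tests were two-sided, with Benjamini-Hochberg adjustment over 15403 loci and a threshold of 0.05 on the adjusted p for a call. The SE and 95% interval come from the fitted coefficient. Alternatives used DESeq2 1.42.0, edgeR's exact test, other scalings and filters, the replicate block and left-out libraries. The fit was tested on counts simulated at the levels of all tested loci, with changes put into the *osm-9(ok1677)* libraries at 51 mM. For the strains at 51 mM it recovered 38 of 88 changes of size 1 on the log2 scale and 93 of 108 of size 2. Of its 134 calls 3 were false. The simulated counts used the dispersion of the fit without the further variance of each locus that the quasi-likelihood method estimates. Far fewer loci were changed than were called in the data. These numbers therefore do not give the recovery or the share of false calls in the real data. The 10 genes have mean counts below the median of those loci. Positions and exon lengths are from Ensembl 115 (WBcel235). Reference sequences were not used here.

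All 10 genes are named, and from each other list at most the 3 called loci with the smallest adjusted p per direction and comparison, the 5 loci most correlated with *osm-9* and with *osm-10*, and the 2 nearest protein-coding genes on each side of *osm-9*. The members and lists were chosen with earlier results of these data known, and the 200 kb window and the overlapping genes were added afterwards. *osm-9(ok1677)* libraries at 200 mM and 51 mM with the same number deviated together (r = 0.695, 0.518, 0.806 and 0.586), and the numbers were taken to pair those samples. Libraries of different numbers were not compared in this way, so the values do not establish the pairing. The main fit does not use this pairing, which enters only through the replicate block.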

Additional observations from a re-analysis of the deposited data

How the results depend on the processing

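The count of 1 of 10 genes called between the strains at 51 mM became 0 with only the groups compared in the fit (*osm-9* log2 fold change 1.30, adjusted p = 0.100) and 0 with *osm-9(ok1677)* libraries 2 and 3 left out, an alternative chosen after seeing the data. Leaving out each replicate in turn gave 0 to 1. Across all alternatives the log2 fold change of *osm-9* ran from 0.94 to 1.66 with adjusted p from 0.0107 to 0.218, and the cause of the losses was not tested. At an unadjusted p of 0.05 or less the counts of 0 became 2 for the strains at 200 mM, 1 for NaCl in N2 and 1 for the difference. The counts over the 10 genes were the same under all other alternatives run. Leaving out 1 library at a time gave log2 fold changes of both signs for 4 of 10 genes between the strains at 51 mM (*ocr-1*, *ocr-2*, *osm-12* and *tax-4*) and 4 at 200 mM (*ocr-3*, *ocr-4*, *osm-12* and *osm-9*), none of them called there, and for 5 in each of the other 3 comparisons.

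With the replicate block, *osm-9* at 51 mM was 1.32 (adjusted p = 0.0213) and the count stayed at 1; it changed no other call among the 10 genes. The N2 and *osm-9(ok1677)* libraries of 1 number correlated with r = 0.386 and 0.366 at 51 mM and 0.469 and 0.191 at 200 mM over only 2 numbers, so there they share only a number. Over all loci at 51 mM the block gave 2350 higher and 1704 lower, in place of 1177 and 713, and at 200 mM 1494 and 1444 in place of 636 and 354. In the NaCl comparison in N2 it gave 108 and 114 in place of 13 and 17. Only the groups compared gave 501 and 291 at 51 mM. With libraries 2 and 3 left out the strains differed by 947 higher and 1623 lower at 51 mM and 720 and 1402 at 200 mM, and with libraries 1 and 4 left out by 1523 and 614 and by 547 and 187. With the block the cilium list had 4 of 34 tested genes called at 51 mM, without *osm-6*, and 4 at 200 mM, or 11.8% each. That was below the share of all tested loci, 26.3% at 51 mM and 19.1% at 200 mM. The molting list had 16 of 19 called at 51 mM (84.2%) and 8 at 200 mM (42.1%).

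Depth limits the 6 genes with means of 12 counts or fewer most. The edgeR exact test and the fit of only the groups compared were not run for the difference between the strains, DESeq2 gave no adjusted p for 1 of the 10 genes for NaCl in *osm-9(ok1677)*, and genes under the filter of an alternative have no value there.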
